A study of Mus musculus with 24 samples.

Results

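Transcription factors of naive, memory and stem-like CD8 T cells are described here: Tcf7, Lef1, Bach2, Satb1, Foxp1, Foxo1, Id3 and Myb. They were taken as a list of gene symbols, not by their levels, and 8 of 8 were found among the 24421 genes counted in each library. CD8 T cells, sorted as CD45+CD3+CD8+, came from the pancreas of KC mice (n = 12), the blood of KC mice (n = 9), the pancreas of WT B6 mice (n = 2) and the blood of a WT B6 mouse (n = 1). KC mice, in the usual meaning of the name, are a model in which preinvasive lesions of the pancreas form with age. The labels spell out neither the alleles nor the Cre driver. KC pancreas was sampled at 4 and 13 weeks of age (n = 3 at each) and at 9, 20 and 30 weeks (n = 2 at each). KC blood was sampled at 4 and 30 weeks (n = 2 at each), at 13 weeks (n = 3), and at 9 and 20 weeks (n = 1 at each). WT pancreas was sampled at 9 and 30 weeks and WT blood at 30 weeks. No treatment is recorded. Libraries are named by their titles, in which P8 marks pancreas and B8 marks blood.

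Naive CD8 T cells are kept quiescent by a network of factors that open naive-cell genes and hold back effector genes. TCF-1, the product of Tcf7, and its relative Lef1 are DNA-binding proteins of the HMG-box family that also maintain memory cells and the stem-like pool that renews T cells in chronic infection and tumours. Foxo1 and Foxp1 are forkhead factors: Foxo1 sustains receptors for survival and lymph node homing, and Foxp1 maintains quiescence. Bach2 is a repressor that competes with AP-1 factors for their sites. Satb1 folds chromatin and sets gene programmes during T cell development. Id3 binds E proteins and keeps them from DNA, and Myb supports self-renewal of precursors and of stem-like T cells.

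Each library held 6352070 to 16716169 reads counted in genes (median 9602260), and 10066 to 12949 genes were detected. Levels below are in CPM, the reads of a gene scaled to a common total of reads counted in genes. T cell identity genes summed to 9110 to 21200 CPM in KC pancreas and 9520 to 17800 CPM in KC blood. The B cell list (6 genes, also a source of Bach2) summed to 0.543 to 95.6 CPM in KC pancreas and 0.727 to 79.7 CPM in KC blood, with Pax5 at 0 in 14 of 24 libraries. The acinar list summed to 0.103 to 7100 CPM in KC pancreas and 0.0896 to 62.9 CPM in KC blood, and the platelet list to 1.89 to 94.2 and 39.7 to 291 CPM in these groups. Their part in the results was not tested. Clustering of the 24 libraries by low traces of genes that were very high in 1 library, cut at 2 groups, gave 2 sets of 12. They are called carry-over sets here. Set 1 held KC pancreas of 4 and 13 weeks, the KC blood libraries 131B8, 42B8 and 43B8, and the WT libraries, and set 2 held the rest. In KC pancreas, ages therefore differ by set as well.

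The members fell into 2 classes of abundance. Tcf7, Lef1, Satb1, Foxp1, Foxo1 and Bach2 averaged 232 to 1240 CPM over the 24 libraries, whereas Id3 averaged 4.77 CPM and Myb 14.1 CPM. Per kilobase of exon in the GENCODE annotation, which is not stated to be the authors' own, the median level over 24 libraries was 476 CPM for Tcf7, 109 for Lef1, 85.6 for Foxo1, 59.4 for Satb1, 55.6 for Foxp1 and 23.6 for Bach2. It was 0.63 CPM per kilobase for Id3 and 0.379 for Myb. Neighbours in this order had overlapping ranges, such as 147 to 964 CPM per kilobase for Tcf7 and 53.6 to 205 for Lef1. Within each library, Tcf7 was nevertheless first in 24 of 24, Lef1 was second or better in 17 of 24, and Id3 and Myb took the last 2 places in 24 of 24. The plot of the members by library shows both classes and the wide scatter of Id3 and Myb.

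**Figure D1:**
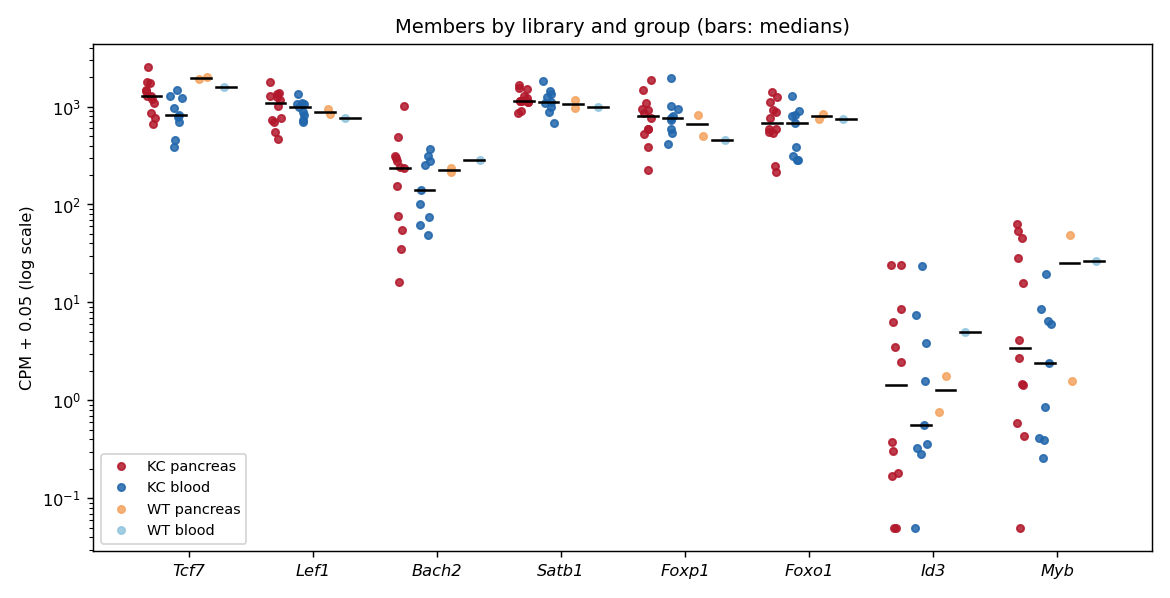
CPM of the 8 members in each library on a log axis, with 0.05 added so that zeros can be drawn, by group (KC pancreas n = 12, KC blood n = 9, WT pancreas n = 2, WT blood n = 1), with bars at the medians. Satb1 spans 675 to 1820 CPM over all libraries, while Id3 spans 0 to 24 and Myb 0 to 63.2 CPM.

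In the GENCODE annotation of mm10 (GRCm38), the build the labels name, Tcf7 lies on chr11:52252371-52283014 (minus strand), Lef1 on chr3:131110471-131224356 (plus), Bach2 on chr4:32238804-32586108 (plus) and Satb1 on chr17:51736187-51833290 (minus). Foxp1 lies on chr6:98925338-99522721 (minus), Foxo1 on chr3:52268336-52353221 (plus), Id3 on chr4:136143497-136145755 (plus) and Myb on chr10:21124935-21160984 (minus). All 8 are protein-coding, and the counts are of reads over each whole gene. Antisense or other opposite-strand genes share exon positions with Lef1, Bach2, Satb1, Foxo1 and Myb, and Gm20696, a protein-coding model on the same strand, shares them with Foxp1. Use of strand in the counting is not given in the sources used here, so reads of such partners cannot be told apart, whereas Tcf7 and Id3 share exon positions with no other gene.

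In CPM over the 24 libraries the steadiest member was Satb1 and the most scattered was Myb, and the stretches in front of their first exons are shown for that contrast. Each is the 250 bases before the most upstream start in RefSeq's promoter table (GRCm38.p6), 5′ to 3′ on the gene's strand, and capitals mark the MYB core AACTG on either strand.
Satb1, chr17:51833291-51833540, minus strand: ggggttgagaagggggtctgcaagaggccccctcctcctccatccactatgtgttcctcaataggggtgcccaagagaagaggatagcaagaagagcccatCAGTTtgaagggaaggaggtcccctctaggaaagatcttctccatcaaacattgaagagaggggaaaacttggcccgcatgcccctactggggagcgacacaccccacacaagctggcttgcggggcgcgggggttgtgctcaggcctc
Myb, chr10:21160985-21161234, minus strand: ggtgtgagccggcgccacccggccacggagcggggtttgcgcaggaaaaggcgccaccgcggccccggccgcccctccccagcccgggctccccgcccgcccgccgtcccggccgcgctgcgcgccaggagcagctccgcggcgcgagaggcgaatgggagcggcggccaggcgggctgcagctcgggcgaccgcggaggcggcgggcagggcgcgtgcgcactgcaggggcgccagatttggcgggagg
The Satb1 window held 58.0% G and C and 1 MYB core, and the Myb window held 81.2% G and C and none. The MYB core was found in 2 of 8 members' windows (Satb1 and Foxp1), against 39.1% of 32851 RefSeq windows of this length. CAGCTG, an E protein site that is its own reverse complement, was found in 1 of 8 (Tcf7), against 13.0%. CTTTGAT for TCF and LEF, GTAAACA for forkhead factors and TGACTCA for AP-1 and BACH were each found in 0 of 8, against 3.21%, 3.17% and 4.46%. These are matches of letters only, on both strands. The windows of Bach2, Foxp1 and Id3 lie inside those genes as GENCODE draws them. In the Tcf7 window, CAGCTG follows an ATG in the same reading frame, so it may be coding rather than promoter sequence. Whether these 4 windows lie at the starts used in T cells is not known. All 250 bases of the Satb1 window, and of the Lef1 window, lie in GENCODE exons of other genes, against 0 bases of the Myb window in any exon.

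Satb1 had 860 CPM in its lowest, 1140 in its median and 1670 in its highest KC pancreas library, against 675, 1100 and 1820 CPM in KC blood. WT pancreas had 1160 and 956 CPM and WT blood 991 CPM. All groups overlapped. The SD of its log2 CPM over 24 libraries was 0.33, and only 0.161% of the 1858 genes that averaged at least 100 CPM had a smaller one. Those 3 genes were Ptprc, which encodes CD45, Tpt1 and Ywhaz. Lef1 followed with an SD of 0.46, undercut by 1.67% of these genes. Tcf7, Foxp1 and Foxo1 had SDs of 0.67, 0.72 and 0.77, and the median gene of the class had 1.09. These ranks depended on the scaling: after TMM scaling, a composition correction, Satb1 was undercut by 0.456% and Lef1 by 5.32% of genes, and Foxo1 by 0.253% rather than 21.2%, which made Foxo1 the steadiest member (SD 0.53, Satb1 0.55). In KC blood alone Lef1 was steadier than Satb1 (SD 0.30 and 0.42).

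Bach2 was the most scattered of the abundant members. Its SD of log2 CPM was 1.37, and 71.3% of the genes of its class had a smaller one, but 54.2% after TMM scaling (SD 1.18) and 54.5% in KC blood alone, close to the median of the class. In KC pancreas its level spanned 63.5-fold, with a lowest value of 16 CPM (133P8), a median of 237 and a highest value of 1010 CPM (131P8). Both extremes came from KC pancreas of 13 weeks. KC blood spanned 49.0 to 368 CPM (median 140), and WT pancreas had 235 and 213 CPM beside 286 CPM in WT blood. Counting error was small beside this scatter: the lowest Bach2 count was 147, for which the Poisson error is 8.25%, and for the other 5 abundant members it was 1.23% to 2.44% at their lowest count.

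**Figure D2:**
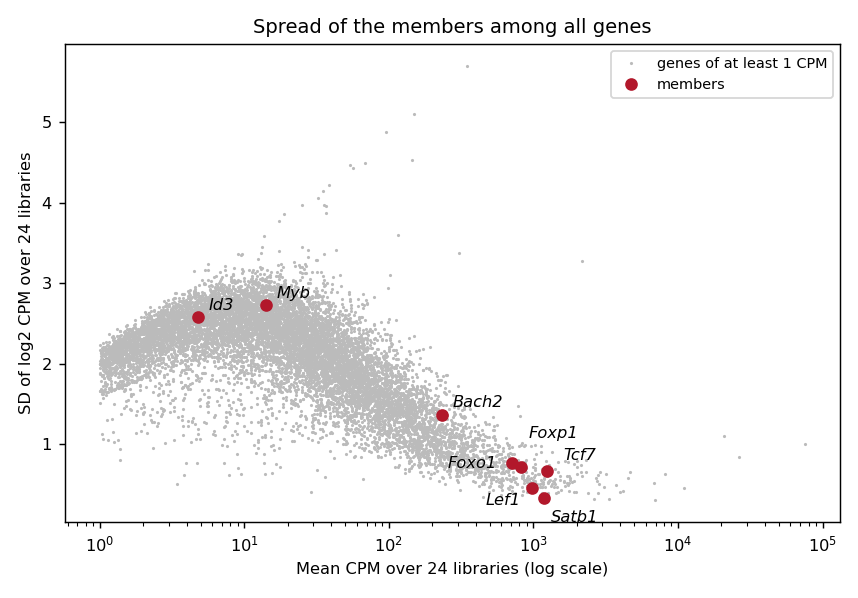
SD of log2 CPM (prior count 1) over 24 libraries against mean CPM on a log axis, for all genes averaging at least 1 CPM (grey) and the 8 members (red). Satb1 (0.33) and Lef1 (0.46) lie at the lower edge, Bach2 (1.37) above the median of its class (1.09), and Id3 (2.58) and Myb (2.72) in the band of low genes.

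Id3 and Myb were present in some libraries and close to absent in others. Id3 reached 24 CPM in KC pancreas and 23.7 CPM in KC blood, yet 7 of 24 libraries held fewer than 3 Id3 counts. It was at 0 counts in 205P8, 303P8 and 302B8, where 0 counts allow up to 0.309, 0.472 and 0.397 CPM (3 counts, counting error only). Myb spanned 0 to 63.2 CPM in KC pancreas and 0.206 to 19.5 CPM in KC blood. Its WT values were 1.52 and 48.7 CPM in pancreas and 26.6 CPM in blood. The SDs of 2.58 (Id3) and 2.72 (Myb) were larger than those of 78.3% and 89.0% of the 9066 genes that averaged 1 to 100 CPM, a class whose median was 2.28. In KC blood alone and in set 2 alone, Id3 scattered more than Myb (2.53 and 2.19 in KC blood, 2.94 and 2.68 in set 2).

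At a threshold of 1 CPM, both genes were present in 12 libraries, Myb without Id3 in 5, neither in 7, and Id3 without Myb in 0. The empty class depends on this threshold. One placed between the Id3 and Myb values of 43P8 (3.48 and 1.37 CPM) or of 43B8 (0.514 and 0.206 CPM) would put that library in it. The 12 libraries with both at 1 CPM were 6 of 12 from KC pancreas, 4 of 9 from KC blood, 1 of 2 from WT pancreas and 1 of 1 from WT blood. Across the 24 libraries, log2 CPM of Id3 and Myb had a Spearman rho of 0.44 (Pearson r 0.47), with 0.79 within set 1 and 0.20 within set 2. Bach2 had a rho of 0.56 with Myb and 0.50 with Id3, and these varied by group. Bach2 and Myb had 0.38 in KC pancreas (n = 12) and 0.97 in KC blood (n = 9), and Bach2 and Id3 had 0.56 and 0.25 in these groups. All of these points share libraries and their complexity: the number of genes detected had a rho of 0.55 with Bach2, 0.54 with Id3, 0.52 with Foxo1 and 0.47 with Myb, against 0.10 with Satb1 and -0.052 with Lef1. Among the marker lists, the rho farthest from 0 over 24 libraries was 0.63 for Bach2 (plasma cells, of whose 4 genes Mzb1 was at 0 in 22 libraries), 0.39 for Id3 (plasma cells) and -0.55 for Myb (T cell identity), with 0.49 for Myb and macrophages and monocytes. The part of complexity and of other cells in these relations was not tested. Tcf7 and Lef1, the closest relatives in the list, had a rho of 0.049.

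**Figure D3:**
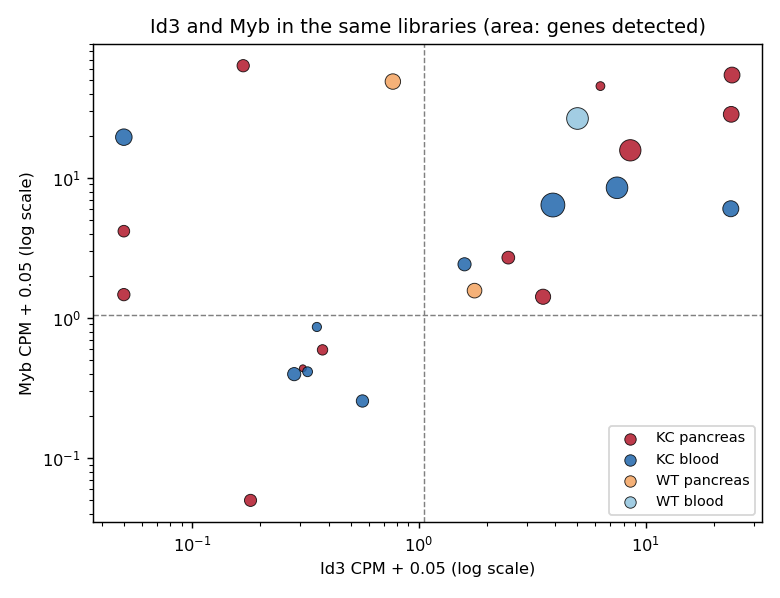
Myb against Id3 CPM in 24 libraries, both on log axes with 0.05 added, coloured by group; a larger symbol means more genes detected, and the dashed lines mark 1 CPM. The quadrant with Id3 above and Myb below 1 CPM holds 0 libraries, and 7 libraries lie below both lines.

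The genes most like each member were sought among 7171 genes that averaged at least 10 CPM, by Spearman rho of log2 CPM over 24 libraries. No member was among the 3 genes most like another. The first gene was Nudt4 for Tcf7 (rho 0.79), Zhx1 for Lef1 (0.81), Scamp2 for Bach2 (0.84) and Arhgap15 for Satb1 (0.66). It was Zfp68 for Foxp1 (0.76), Scaf4 for Foxo1 (0.80), Iqgap1 for Id3 (0.82) and Lrrc1 for Myb (0.81). With 7171 genes and 24 libraries these maxima are descriptions, and the libraries share depth and carry-over set.

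The first comparison set KC pancreas against KC blood, with age as a factor. Tcf7 had 660 CPM in its lowest, 1270 in its median and 2530 CPM in its highest KC pancreas library, against 386, 822 and 1480 CPM in KC blood. The groups overlapped, and the means were 1340 ± 517 CPM (SD, n = 12) in KC pancreas and 898 ± 373 CPM (SD, n = 9) in KC blood. The log2 difference in edgeR's quasi-likelihood fit was 0.95 ± 0.34 (SE), with an unadjusted p of 0.00845 and a Benjamini-Hochberg adjusted p of 0.306 over 11059 genes. Of the 8 members, 0 passed an adjusted p of 0.05, beside 0.0904% of all genes (10 of 11059), and 1 had an unadjusted p under 0.05, beside 9.85% of all genes. In bulk samples, fewer cells of a type and less RNA per cell cannot be told apart.

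All 8 fitted differences between tissues were above 0, beside 45.4% of all genes, and their median was 0.45 on the log2 scale beside -0.12 for all genes. Bach2 had 0.79 ± 0.53, Foxo1 0.58 ± 0.35, Satb1 0.32 ± 0.32, Foxp1 0.27 ± 0.36 and Lef1 0.19 ± 0.34 (log2, SE), with adjusted p of 0.629 to 0.91 in edgeR. Myb had 1.70 ± 1.01 (adjusted p = 0.721) and Id3 0.0059 ± 1.15 (adjusted p = 1). The 95% intervals ran from -0.49 to 0.87 for Lef1, from -0.33 to 0.97 for Satb1 and from -0.45 to 0.98 for Foxp1, so that larger differences between tissues lie outside them. For Id3 the interval ran from -2.30 to 2.31. The directions of Lef1, Satb1, Bach2 and Id3 did not hold in each setting: within set 1 the values were -0.34 for Lef1 and -0.21 for Satb1, and within set 2 they were -0.089 for Bach2 and -2.45 for Id3. Tcf7 kept its direction within set 1 (1.01) and set 2 (0.66).

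In KC mice 9 title numbers occur in both tissues, which the labels do not state to mean the same mouse. Tcf7 CPM was higher in the pancreas library of the pair in 7 of 9, with 1440 against 455 CPM for number 131, 2530 against 1480 for 132, 1490 against 1230 for 205 and 1270 against 386 for 43. It was lower in 133 (764 against 822 CPM) and 95 (1180 against 1270 CPM). Myb was also higher in the pancreas library in 7 of 9 pairs, Foxo1 and Id3 in 6, Bach2 and Foxp1 in 5, and Lef1 and Satb1 in 4. After TMM scaling the count for Tcf7 was 7 of 9 as well, but with 42 rather than 133 among the exceptions.

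**Figure D4:**
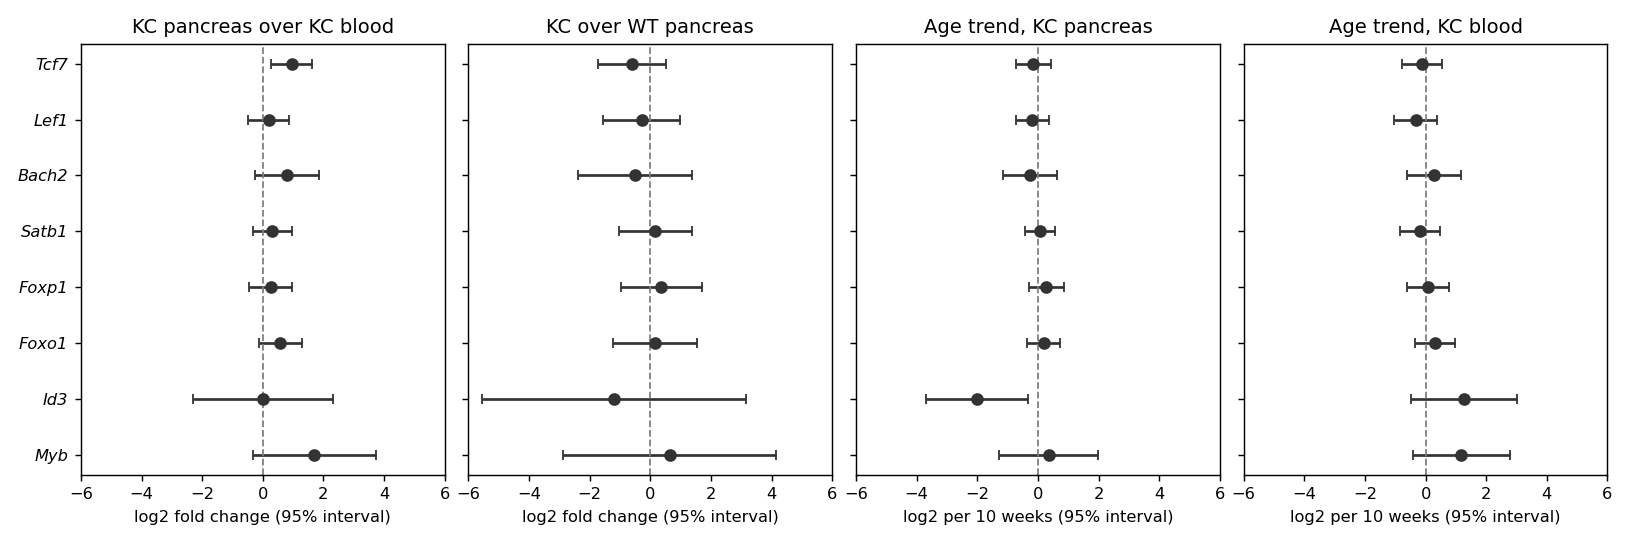
Fitted log2 fold change of each member with its 95% interval, KC pancreas over KC blood (12 against 9 libraries), KC over WT pancreas at 9 and 30 weeks, and the age trends in log2 per 10 weeks in KC pancreas (n = 12) and KC blood (n = 9). Tcf7 between tissues (0.27 to 1.63) and Id3 over age in KC pancreas (-3.70 to -0.34) are the intervals that lie off 0, and neither passed the adjusted threshold.

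In KC blood, the CPM of several members parted by carry-over set. Tcf7 had 386 to 692 CPM in the 3 set 1 libraries and 780 to 1480 CPM in the 6 set 2 libraries, Foxp1 had 418 to 593 and 721 to 1950 CPM, and Foxo1 had 287 to 312 and 388 to 1270 CPM in these sets. For these 3 of 8 members set 1 lay wholly below set 2, beside 16% of all genes tested in KC blood. In KC pancreas this held for 0 of 8 members, beside 0.638% of genes. After TMM scaling, set 1 lay wholly below set 2 for 0 of 8 members, beside 7.11% of genes, and wholly above it for 2 of 8, beside 5.43%. These were Lef1 (1170 to 3000 against 521 to 920 scaled CPM) and Satb1 (1500 to 1860 against 617 to 1230) in sets 1 and 2. The set 1 blood libraries came from 4, 4 and 13 weeks, so that set and age overlap in part. At 13 weeks, which holds both sets, 131B8 of set 1 had 455 CPM of Tcf7, against 1480 and 822 CPM in 132B8 and 133B8 of set 2.

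The study followed KC mice with age, and Id3 had the steepest fitted course of the members. In KC pancreas it had 23.8, 24 and 3.48 CPM at 4 weeks and 0.131 and 8.51 CPM at 9 weeks. It had 2.43, 0.258 and 0.326 CPM at 13 weeks, 6.27 and 0 CPM at 20 weeks, and 0.118 and 0 CPM at 30 weeks. The 4-week values were high in 2 of 3 libraries, and the 30-week values were at or under the level of 1 read. The acinar list (8 genes) differed between ages as well in KC pancreas. Its sums were 1330, 7100 and 3880 CPM at 4 weeks and 0.131 and 0.366 at 9 weeks. They were 78.6 to 477 at 13 weeks, 0.103 and 0.136 at 20 weeks, and 0.236 and 59 CPM at 30 weeks. Ages 4 and 13 weeks are carry-over set 1 and the other ages set 2, so these sums parted by set too. In KC blood the list summed to 57.7, 60 and 62.9 CPM in the set 1 libraries and to at most 1.4 CPM in set 2. The fibroblast list (5 genes) summed to 107, 6.08 and 325 CPM at 4 weeks and to at most 7.5 CPM at later ages. Their part in the Id3 values was not tested. The trend was -2.02 ± 0.81 in log2 per 10 weeks (SE, n = 12), with an unadjusted p of 0.036 and an adjusted p of 0.49 in edgeR. Of the 8 members, 0 passed, beside 0.293% of 9555 genes, and 1 had an unadjusted p under 0.05, beside 8.95% of genes. With the set as a term the Id3 trend was -2.88 (adjusted p = 0.789; over the other settings 0.0941 in DESeq2 to 0.524), and leaving out 1 library at a time gave -3.11 (without 204P8) to -1.73.

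In KC blood Id3 ran the other way in the fit, but on 1 library. It had 0.273 and 0.514 CPM at 4 weeks, 3.85 at 9 weeks, 0.305, 7.43 and 0.232 at 13 weeks, 1.54 at 20 weeks, and 0 and 23.7 CPM at 30 weeks. The trend was 1.27 ± 0.85 in log2 per 10 weeks (adjusted p = 0.686), and -0.77 without 303B8. The difference of the trends, pancreas minus blood, was -3.30 ± 1.23 (95% interval -5.78 to -0.82), with an unadjusted p of 0.013 and an adjusted p of 0.394 in edgeR. Without 303B8 it was -1.22. For this difference 0 of 8 members passed, beside 0.0543% of 11059 genes, and Id3 was the 1 member with an unadjusted p under 0.05, beside 8.33% of genes.

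The other 7 members had no trend that passed in either tissue. In KC pancreas their slopes ran from -0.26 (Bach2) to 0.35 (Myb) in log2 per 10 weeks. Tcf7 medians were 1270 CPM at 4 weeks, 1460 at 9, 1440 at 13, 1080 at 20 and 1070 CPM at 30 weeks, with overlapping values, and the slope was -0.16 ± 0.28 (95% interval -0.74 to 0.42). It turned to 0.15 with set beside age and to 1.31 within set 1. Lef1 had its lowest values at 30 weeks, 471 and 693 CPM, but 550 CPM was reached at 13 weeks. In KC blood 0 of 8 passed, as did 0% of 9933 genes (870, or 8.76%, had an unadjusted p under 0.05, and 317 passed in DESeq2), and the slope of Myb was 1.18 ± 0.78 (adjusted p = 0.7). An F-test for any difference among the 5 ages in KC pancreas called 0 of 8 members, beside 6.56% of 10552 genes, and 0 of 8 had an unadjusted p under 0.05, beside 24.4% of genes. The lowest adjusted p among the members in that test was 0.263, for Id3.

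**Figure D5:**
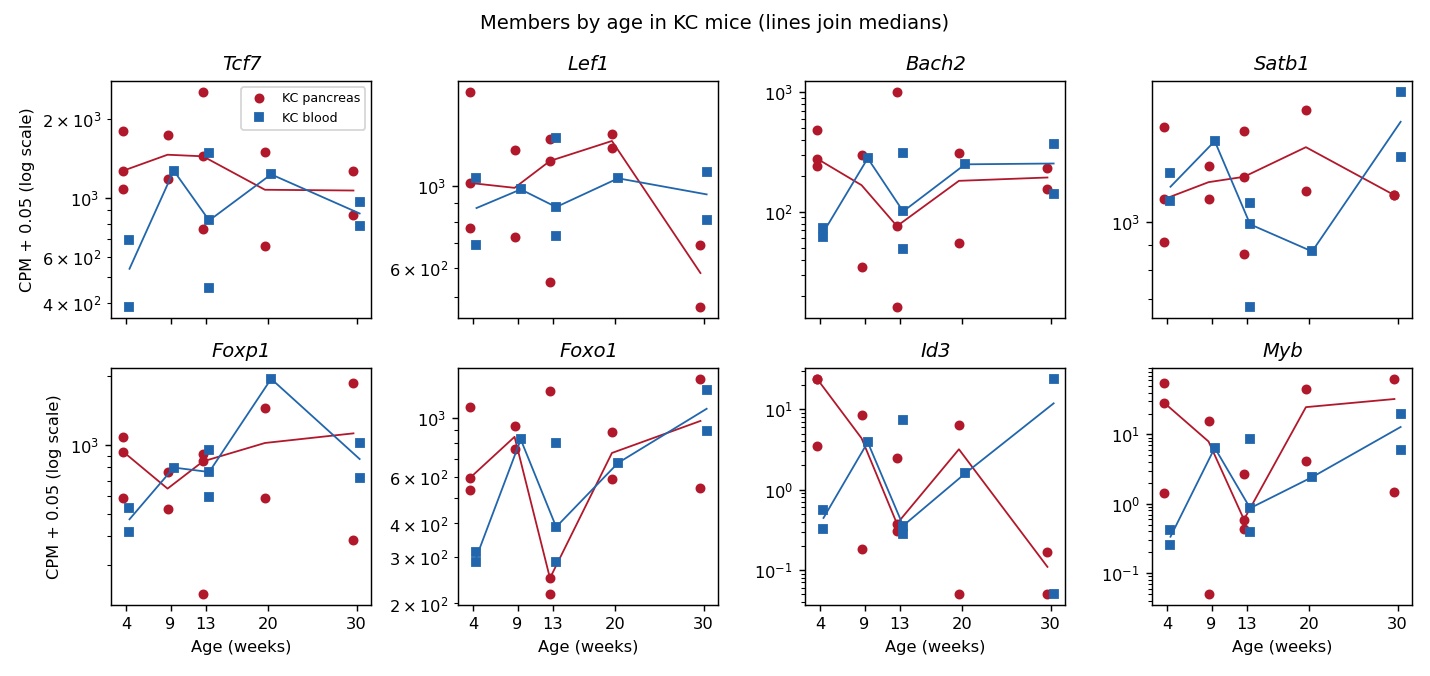
CPM of each member by age in KC pancreas (red circles) and KC blood (blue squares), on log axes with 0.05 added and scales that differ by panel; lines join the medians of each age. Id3 in KC pancreas runs from 3.48 to 24 CPM at 4 weeks to at most 0.118 CPM at 30 weeks, and the other members overlap across most ages.

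KC and WT libraries were compared in pancreas at 9 and 30 weeks. Tcf7 had 1740 and 1180 CPM in KC pancreas of 9 weeks against 2010 CPM in WT pancreas of that age, and 1270 and 866 CPM in KC pancreas of 30 weeks against 1900 CPM in WT pancreas. The 4 KC values were all lower, but the share of all genes with this order was not computed. The KC libraries of these ages are all in carry-over set 2 and the WT libraries in set 1, in pancreas and in blood of 30 weeks alike, so that genotype and set cannot be told apart there. The fitted log2 difference was -0.61 ± 0.58 (adjusted p = 0.947 in edgeR). Of the 8 members 0 passed, beside 0.226% of 12374 genes, and 0 had an unadjusted p under 0.05, beside 5.79%. The values of the other members ran from -1.21 (Id3) to 0.64 (Myb), the median of the 8 was -0.067 beside 0.41 for all genes, and the interval for Satb1 was -1.04 to 1.36. In blood of 30 weeks, Tcf7 had 968 and 780 CPM in KC mice against 1590 CPM in the WT mouse, and fitted values of the members ran from -1.17 (Myb) to 1.26 (Id3). The single WT blood library allows a fit only with the spread of KC blood: 0 of 8 members passed, as did 0% of 12496 genes, and 0 of 8 had an unadjusted p under 0.05, beside 2.83% (354 genes; 11 genes passed in DESeq2).

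The genes around these factors were counted as lists: naive and homing genes (15), stem-like progenitor genes (12), cofactors of Tcf7 and Lef1 (8 of 10 tested between tissues), paralogs of the members (9 of 15 tested), E proteins that Id3 binds (3) and factors of effector cells (9). Between KC pancreas and KC blood, 0 genes of each list passed. The smallest p belonged to Irf4, an effector factor induced by receptor signals, at a log2 difference of 2.65 ± 0.78 (adjusted p = 0.267 in edgeR), with 3.55 to 357 CPM in KC pancreas and 3.05 to 18.6 CPM in KC blood. Eomes, a factor of memory and exhausted cells, had 2.15 ± 0.75 (adjusted p = 0.351) and Tox, a factor tied to exhaustion, 1.42 ± 0.55 (adjusted p = 0.408), in edgeR's fit. Of the naive and homing list, Cd27, a costimulatory receptor of naive and memory cells, had 1.19 ± 0.57 (adjusted p = 0.504 in edgeR). The next 2 of that list by p went the other way, Pik3ip1 with -1.50 ± 0.69 and Ltb with -1.95 ± 0.90 (adjusted p = 0.519 and 0.585 in edgeR). Of the stem-like progenitor list, 9 of 12 genes were above 0, with a median log2 difference of 0.51. The naive and homing list had 6 of 15 above 0 with a median of -0.20, and the effector list 5 of 9 with a median of 0.14. Over all genes, 45.4% were above 0 and the median was -0.12. Tcf4, an E protein, had -3.06 ± 1.07 (adjusted p = 0.437), with 0 to 86.7 CPM in KC pancreas and 0.232 to 89.7 CPM in KC blood, whereas Tcf12, the most abundant E protein, had 59.5 to 1890 CPM in KC pancreas and 145 to 500 CPM in KC blood.

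Over age, 0 genes of the stem-like progenitor, cofactor, paralog, E protein and effector lists passed in any of the trends, their difference or the F-test among ages, and 0 of the naive and homing list passed in the trends or their difference. Among trends, Mybl1, a paralog of Myb, came closest in the difference between tissues, at 6.04 ± 1.39 in log2 per 10 weeks (adjusted p = 0.0633), but 1 library in each tissue carried it. Mybl1 had 49.3 CPM in 303P8 and at most 4.65 in the other 11 KC pancreas libraries, and 209 CPM in 43B8 and at most 1.97 in the other 8 KC blood libraries. The value was 3.31 (adjusted p = 0.705) without 303P8 and 3.40 (adjusted p = 0.544) without 43B8, in edgeR fits added after the data were seen. The E proteins Tcf4 and Tcf3 had slopes of -2.22 ± 0.89 and -1.15 ± 0.71 in KC pancreas (adjusted p = 0.344 and 0.889). Tcf4 had 86.7 CPM in 41P8 and 5.16 CPM in 43P8, both of 4 weeks, and at most 1.83 CPM in the other KC pancreas libraries. Against WT mice, 0 genes of the lists passed in pancreas (lowest adjusted p = 0.784) and 0 in blood (adjusted p = 1).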

How the data were processed

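RNA of sorted CD45+CD3+CD8+ T cells was isolated by an Rneasy Plus Micro kit, per the labels. Deposited were the authors' read counts per gene symbol, with no normalisation, for 24421 genes and 5 tallies of unassigned reads that were left out. TopHat, SAMtools, HTSeq and DESeq with mm10 are named in the submitters' processing notes, and versions and annotation are not given in the sources used here. Of the tallied reads, 11.7% to 32.5% fell in genes.

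Groups and ages came from the labels. Replicates are not stated to be separate mice, so p-values measure the spread between libraries. CPM were computed from gene totals without TMM scaling, and log2 CPM with a prior count of 1. Comparisons used edgeR 4.0.16 in R 4.3.3 (robust two-sided quasi-likelihood F-tests, TMM factors of 0.45 to 1.8, filterByExpr at a count of 10). P-values were Benjamini-Hochberg adjusted over all genes tested, with a threshold of 0.05, and all 8 members passed the filter each time. SEs of log2 differences came from the fitted weights and the posterior quasi-dispersion. DESeq2 1.42.0 was an alternative, with other scalings, filters, covariates and left-out libraries. Tissues were compared in 21 KC libraries with age as a factor, trends in KC pancreas (12) and KC blood (9), and KC with WT in 14 pancreas and 10 blood libraries. The fits were also run on simulated counts with known changes. Their recovery is not reported here, so the size of change that the fits could miss is not given.

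Members and lists were chosen with earlier results of these data known. Of each list, up to 4 genes with the smallest p per comparison could be named, and some are given here. Carry-over sets rest on 95 trace genes of 14 libraries (at least 100 CPM in the source, at most 5% of it elsewhere), seen in 92.4% of cases within their own set and 47.7% across sets. The number of sets was fixed at 2 beforehand. Both shares come from the traces that defined the sets, so a higher share within sets was built in and is no test of them. No 2 libraries were identical. Promoter windows matched 8 of 8 members in RefSeq (GRCm38.p6). Gene positions and exon lengths are from GENCODE, matched by symbol for 8 of 8. Some results on single genes are not reported here.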

Additional observations from a re-analysis of the deposited data

Results flagged for a closer look

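Outlying libraries were sought by Dixon's test at the low and the high end of each member's CPM in KC blood (9 libraries), 16 tests in all. If values were normally spread, chance would mark about 1 in 20 members, counting both ends. The test was run on CPM and not on log2 CPM, so a long upper tail may be marked more often at the high end. How much more often was not tested. The 3 marked values are single KC blood libraries, all at the high end. Foxp1 had 1950 CPM in 205B8, the only KC blood library of 20 weeks, beside 418 to 1020 CPM in the other 8. Id3 had 23.7 CPM in 303B8, and the KC blood trend of Id3 was -0.77 without it. Myb had 19.5 CPM in 302B8, which held 0 Id3 counts. Both of the last come from 30 weeks, at which the pair had Id3 values of 0 and 23.7 CPM and Myb values of 19.5 and 5.98 CPM. KC pancreas, with 12 libraries, was not tested in this way.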

How the results depend on the processing

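No member passed an adjusted p of 0.05 in any of the 7 comparisons under any setting that gave a value: 0 of 346 member values under other settings and 0 of 784 with 1 library left out. Of these, 26 and 40 changed direction, and the cause was not tested. Between tissues, values (log2) that turned were -0.80 for Id3 in libraries with a shared number, -1.06 for Id3 without 4 weeks, -0.02 for Lef1 with set beside age, -0.34 for Lef1 and -0.21 for Satb1 in set 1 alone, and -0.089 for Bach2 and -2.45 for Id3 in set 2 alone. For the trend in KC pancreas they were 0.15 (Tcf7), 0.071 (Lef1) and 0.41 (Bach2) with set beside age, 1.31 (Tcf7), 0.81 (Lef1), 0.59 (Bach2) and -4.21 (Myb) in set 1 alone, and 0.34 (Bach2) in set 2 alone. For KC blood they were -0.091 for Foxp1 with RLE scaling and with DESeq2, 0.27 (Lef1) and 0.16 (Satb1) with set beside age, and 0.077 (Lef1) and 0.20 (Satb1) in set 2 alone. For the difference of trends they were 0.044 (Tcf7) and 0.026 (Foxo1) with RLE scaling, 0.026 (Foxo1) with DESeq2 and 0.00075 (Tcf7) with set beside age. The trends in 1 set alone and the scalings of the spread were added after the data were seen.

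With 1 library left out, values that turned ranged from -0.90 to 1.24 for Id3 between tissues. In the KC pancreas trend they ranged from -0.28 to 0.016 for Tcf7, -0.28 to 0.048 for Lef1, -0.0049 to 0.19 for Satb1 and -0.36 to 0.82 for Myb, and in the KC blood trend from -0.07 to 0.30 for Foxp1 and -0.77 to 1.65 for Id3. In the difference of trends they ranged from -0.13 to 0.15 for Tcf7, -0.044 to 0.45 for Foxp1 and -0.29 to 0.049 for Foxo1. In KC against WT pancreas they ranged from -1.26 to 0.046 for Bach2, -0.21 to 0.43 for Satb1, -0.39 to 0.72 for Foxp1, -0.24 to 0.55 for Foxo1, -3.22 to 0.65 for Id3 and -3.53 to 1.66 for Myb. In blood they ranged from -0.055 to 0.50 for Lef1, -1.03 to 0.23 for Bach2 and -8.52 to 2.26 for Id3.

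The title numbers of pancreas and blood libraries were not taken as pairs, because the labels do not state that they mean the same mouse. Deviations from group means of 7 checked pairs correlated at -0.052 to 0.0145, and 2 matched their own number best. These were 302 and 303, the only KC libraries of their age in either tissue. Their deviations mirror each other, so both had 0.0145 and the matches are not separate results. With so few libraries of each age, the check cannot show whether a shared title number means the same mouse. With the number as a replicate block 0 members passed, and Tcf7 had 0.87 between tissues (adjusted p = 0.97 in edgeR) and 0.074 for the difference of trends. Of all genes, 14 (main 10) and 0 (main 6) passed in these comparisons. Under the other settings the adjusted p of Tcf7 between tissues was 0.18 to 0.724, without DESeq2, which gave none.

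Counts over all genes moved more. DESeq2 called 480 genes between tissues (main 10), 422 (main 28) and 317 (main 0) for the trends in KC pancreas and blood, 242 for their difference (main 6), 1663 among ages (main 692), 158 against WT pancreas (main 28) and 11 against WT blood (main 0). Without a filter on low counts, the counts were 34 between tissues, 686 and 102 for the trends and 1746 among ages. Between tissues, 65 were called with no age term, 6 in set 1, 2 in set 2 and 4 without 4 weeks, and in the KC pancreas trend 0 with set beside age and in either set. For the difference of trends the count was 0 with RLE scaling, 1 with set beside age and 1 without the robust option, and in blood against WT it was 5 with only 30 weeks. With 1 library left out it ran from 6 to 21 between tissues, 10 to 31 and 0 to 12 for the trends in pancreas and blood, 0 to 13 for their difference, 582 to 1360 among ages, and 4 to 29 and 0 to 2 against WT pancreas and blood.

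DESeq2 gave no p for Tcf7 or Lef1 in 5 cases, among them Tcf7 between tissues, so DESeq2 did not test Tcf7 there. Id3 was too low in set 2 for a KC pancreas trend. The set could not be fitted beside age as a factor, and KC blood could not be set against WT without the single WT library. Depth limits Id3 and Myb, at under 3 counts in 7 and 2 of 24 libraries.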
